A study of Mus musculus with 22 samples.

Results

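The guanylate-binding protein genes Gbp2, Gbp3, Gbp4, Gbp5, Gbp6, Gbp7, Gbp8, Gbp9 and Gbp10 were followed in RNA-seq libraries from the small intestine of GRWT and GRDim mice on normal water or on zinc. The members were matched by symbol to the Ensembl identifiers of the count table, which lists 54838 genes, and all 9 members passed the filter on low counts. In GRDim mice a point mutation in the glucocorticoid receptor, present in all tissues, impairs its dimerisation, and GRWT mice carry the wild-type receptor. Both genotypes were adult females on the FVB/N background and were bred from heterozygous intercrosses in a conventional animal house. Each genotype received normal drinking water or water with 25 mM ZnSO4 for 7 days, which gave 6 GRDim water, 6 GRDim zinc, 5 GRWT water and 5 GRWT zinc libraries. Although the series design also names dexamethasone, no sample label carries it. Counts per gene do not show the point mutation, so the genotype labels could not be checked against the targeted gene.

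Guanylate-binding proteins are large GTPases whose genes are among those most strongly switched on by interferon-gamma, in part through IRF1 at interferon-stimulated response elements. They assemble on the vacuoles of intracellular parasites and on the surface of cytosolic bacteria, together with the immunity-related GTPases, and they help caspase-11 and the inflammasomes to detect bacterial lipopolysaccharide and DNA. In the intestine, epithelial cells, macrophages and lymphocytes can all express them.

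The labels call 12 libraries ileum and 10 IEC (scraped intestinal epithelium), and the label follows a digit in the sample names whose meaning the labels do not give. The smooth muscle marker Myh11 did not follow that label. It was at 298 to 463 CPM (counts scaled to the size of the library) in 12 libraries, 7 of them labelled IEC, and at 3.22 to 20.5 CPM in the other 10, of which 7 were labelled ileum. Values are therefore given apart for these muscle-rich and muscle-poor libraries. On the muscle-poor side, there were 3 libraries for each GRDim condition and 2 for each GRWT condition, and on the muscle-rich side each condition had 3. The genotype comparison on water stayed within the ileum label on the muscle-poor side. On the muscle-rich side genotype went partly with the label. On water the 3 GRDim libraries were labelled IEC, against 2 IEC and 1 ileum in GRWT. On zinc the 3 GRDim libraries were labelled ileum, against 1 ileum and 2 IEC in GRWT. Zinc and tissue label cannot be told apart among the GRDim libraries of either side, since the muscle-rich ones were labelled IEC on water and ileum on zinc, and the muscle-poor ones were labelled the other way round. Library totals ran from 13149951 to 15620744 counts. GRWT zinc replicate 3, a muscle-poor library, stood apart with little of the ileal bile acid-binding gene Fabp6, and the column names of 2 GRDim water libraries do not give their own number.

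On GRCm38, 4 members lie together on chromosome 3 and 5 lie on chromosome 5. On the plus strand are Gbp5 (ENSMUSG00000105504, chr3:142493978-142522344), Gbp7 (ENSMUSG00000040253, chr3:142530342-142550149), Gbp3 (ENSMUSG00000028268, chr3:142560026-142573209) and Gbp2 (ENSMUSG00000028270, chr3:142620602-142638008). On the minus strand are Gbp8 (ENSMUSG00000034438, chr5:105014150-105139540), Gbp9 (ENSMUSG00000029298, chr5:105077630-105139539), Gbp4 (ENSMUSG00000079363, chr5:105115767-105139586), Gbp10 (ENSMUSG00000105096, chr5:105215699-105239533) and Gbp6 (ENSMUSG00000104713, chr5:105270702-105293698). Gbp4, Gbp8 and Gbp9 overlap over a first exon of about 60 bases. The read-through gene Gm43302 covers 29.0% of the exon bases of Gbp6 and 46.3% of those of Gbp10, and it had 0 counts in every library. Reads from bases that annotated genes share could not be assigned to a single gene, so levels of Gbp6 and Gbp10 can be underestimated. The same holds for Gbp7, of whose exon bases Gm43802 shares 11.3% on the same strand.

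The chromosome 5 members resemble each other closely, at 90.1% to 98.4% identity over the aligned coding bases, against 63.3% to 78.3% among the chromosome 3 members. Gbp6 and Gbp10 differ at 30 of 1836 coding bases, and 76.2% of the 50-base stretches of Gbp10 transcripts also occur in a gene that does not overlap it. For Gbp6 this share was 49.9%, for Gbp8 12.9% and for Gbp4 6.54%, while it was below 5% in the other members. The most divergent 60-base window of the coding sequence is shown because the split of reads between both genes rests on such bases, with the 9 bases that differ in capitals (bases 1567 to 1626 of the coding sequence, GRCm38):
Gbp6: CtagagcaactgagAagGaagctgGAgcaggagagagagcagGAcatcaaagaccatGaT
Gbp10: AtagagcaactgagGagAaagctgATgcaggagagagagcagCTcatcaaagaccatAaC
The mice were FVB/N and the reads were mapped to the C57BL/6J reference, and the part of strain differences in the split was not tested.

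RefSeq (GRCm38.p6) promoter sequences were at hand for the 4 chromosome 3 members. They are shown because members move together in the results, with matches on either strand to GAAA and GAAA separated by any 2 bases, the core of an interferon-stimulated response element, and to TTCNNNGAA, a gamma-activated site, in capitals. The RefSeq starts used here differ from the gene starts given above. The windows of Gbp2 and Gbp3 therefore reach into those gene spans, and that of Gbp5 lies inside its span. Each sequence runs over the 250 bases before the RefSeq start on the plus strand:
Gbp2, chr3:142620413-142620662: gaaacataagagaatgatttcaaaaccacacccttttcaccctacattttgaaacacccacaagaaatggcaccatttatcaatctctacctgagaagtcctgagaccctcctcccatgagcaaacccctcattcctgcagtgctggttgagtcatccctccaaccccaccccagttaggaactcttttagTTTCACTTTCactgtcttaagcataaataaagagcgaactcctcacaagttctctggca
Gbp3, chr3:142559794-142560043: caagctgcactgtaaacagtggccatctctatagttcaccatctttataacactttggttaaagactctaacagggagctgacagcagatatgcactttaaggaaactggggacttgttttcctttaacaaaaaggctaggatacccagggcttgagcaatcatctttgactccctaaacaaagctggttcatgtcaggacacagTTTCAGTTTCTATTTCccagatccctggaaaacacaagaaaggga
Gbp5, chr3:142496684-142496933: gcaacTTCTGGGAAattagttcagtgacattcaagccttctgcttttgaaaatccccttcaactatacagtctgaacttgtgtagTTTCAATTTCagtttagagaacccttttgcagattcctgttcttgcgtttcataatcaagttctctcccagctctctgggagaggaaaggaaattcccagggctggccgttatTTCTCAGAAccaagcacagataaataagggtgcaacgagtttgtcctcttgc
Gbp7, chr3:142530086-142530335: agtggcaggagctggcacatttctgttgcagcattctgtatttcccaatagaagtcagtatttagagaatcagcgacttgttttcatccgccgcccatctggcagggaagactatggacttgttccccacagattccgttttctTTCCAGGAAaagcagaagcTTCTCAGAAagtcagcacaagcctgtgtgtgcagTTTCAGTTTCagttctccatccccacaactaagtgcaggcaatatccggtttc
The paired GAAA motif occurred in all 4 windows and in 2.977% of 32851 promoter windows. In Gbp2 it lay at -59 to -50, in Gbp7 at -53 to -44 and in Gbp5 at -165 to -156 from the start, and in Gbp3 a pair of overlapping matches spanned -45 to -30. TTCNNNGAA had 2 matches each in Gbp5 and Gbp7, none in Gbp2 or Gbp3, and occurred in 7.02% of all windows. A further start of Gbp3 held neither motif in its 250 bases. These matches describe the letters only.

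Per kilobase of exon that no other gene shares, Gbp2 had the highest level in muscle-rich libraries (15.7 ± 2.00 normalised CPM per kb in GRWT on water, SD, n = 3), followed by Gbp3 (4.95 ± 0.49) and Gbp7 (4.67 ± 0.47), which did not differ beyond their spread. Gbp8 (2.12 ± 0.31) and Gbp9 (1.91 ± 0.32) overlapped as well, then came Gbp4 (1.18 ± 0.19), Gbp6 (0.93 ± 0.36) and Gbp5 (0.92 ± 0.12), which did not differ beyond their spread, and Gbp10 was lowest (0.030 ± 0.029). In muscle-poor GRWT libraries on water Gbp7 (9.82 ± 4.59, n = 2) and Gbp2 (9.71 ± 6.68) led with wide spreads, and Gbp10 (3.77 ± 0.85) was the third. Gbp3 was the second of 9 on the muscle-rich and the seventh on the muscle-poor side. These levels are not corrected for sequence shared with genes that do not overlap. Gbp6 and Gbp10, with 49.9% and 76.2% of their 50-base stretches shared in this way, can therefore rank too low.

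**Figure D1:**
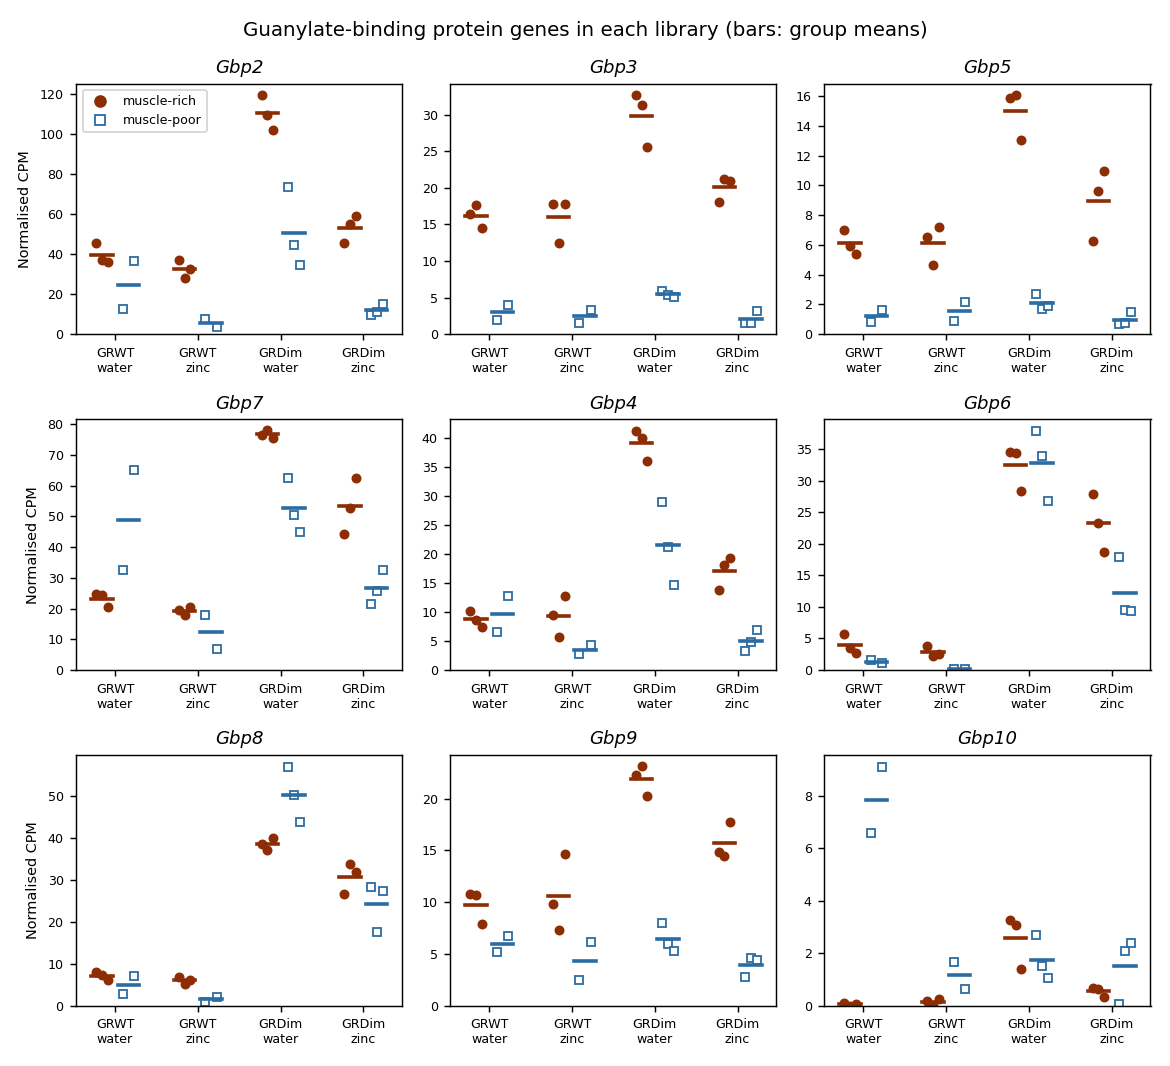
Normalised CPM (vertical axis, linear from 0) of each member in every library, by genotype and water (horizontal axis). Filled circles are muscle-rich and open squares muscle-poor libraries, and bars are group means. On the muscle-rich side the GRDim water libraries lie above the GRWT water libraries in all 9 panels, while Gbp10 on the muscle-poor side shows the opposite order.

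Member levels were compared between genotypes on water first. In the muscle-rich libraries, the 8 members other than Gbp10 rose in GRDim mice, with log2 fold changes from 0.90 (Gbp3) to 3.04 (Gbp6). Gbp10 was called too, but it passed the filter on low counts only through the groups in which it is high, with 3 reads in the muscle-rich GRWT water libraries. Called here means an adjusted p under 0.05 and a log2 fold change beyond 0.8 in edgeR's quasi-likelihood test, and 10.5% of the 15947 genes tested were called, 5.02% upward. The median change over all genes was -0.0028. All 9 members also had GRDim and GRWT libraries that did not overlap, as did 26.3% of genes in that direction. In muscle-poor libraries Gbp6 alone was called, among 4 genes in all, 0.0288% of 13908. On that side 4 members had an unadjusted p under 0.05, as did 783 genes, and DESeq2 called 2 members. There 5 members were higher without overlap, against 19.4% of genes, and Gbp10 was lower, as were 19.7%.

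Gbp6 was the member called on both sides. In muscle-rich libraries it was at 34.6, 34.5 and 28.4 normalised CPM in GRDim and at 5.67, 3.44 and 2.74 in GRWT mice on water (log2 fold change 3.04 ± 0.26, SE, adjusted p = 1.15e-05). In muscle-poor libraries it was at 37.9, 34.0 and 26.9 in GRDim and at 1.51 and 1.10 in GRWT mice (4.65 ± 0.38, adjusted p = 0.00352). No GRDim library came near a GRWT library on either side. Without GRWT water replicate 2 or 3 the muscle-poor change was 4.89 or 4.44, with an adjusted p of 0.112 or 0.106, as that group was then a single library assumed to vary like the others. Over all 22 libraries, with the muscle split as a covariate, Gbp6 was 13.3-fold higher in GRDim (3.74 ± 0.39, adjusted p = 2.32e-05). These Gbp6 values depend on the split of reads with Gbp10, and the sum of both genes is given further on.

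Gbp8, the neighbour of Gbp9 at the far end of the chromosome 5 cluster, followed Gbp6. It was at 38.5, 37.0 and 39.9 normalised CPM in muscle-rich GRDim libraries on water against 8.15, 7.30 and 6.06 in GRWT (2.44 ± 0.11, adjusted p = 2.95e-09). In muscle-poor libraries it was at 56.9, 50.1 and 43.7 against 2.84 and 6.98, a change of 3.34 ± 0.42 that missed the threshold at an adjusted p of 0.0566 and passed it by DESeq2 (1.82e-13). The genotypes did not overlap on either side. Over all libraries Gbp8 rose 7.47-fold (2.90 ± 0.31, adjusted p = 2.32e-05).

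Gbp4 stood at 41.3, 39.9 and 36.1 normalised CPM in muscle-rich GRDim libraries against 10.2, 8.68 and 7.37 in GRWT (2.17 ± 0.23, adjusted p = 6.61e-05). In muscle-poor libraries it was at 29.0, 21.2 and 14.6 against 6.52 and 12.8, which also did not overlap, with a change of 1.15 ± 0.42 that was not called (adjusted p = 0.761). Gbp4 and Gbp8 share only their first exon, and Gbp9, which starts there too, moved less. Gbp9 was at 22.3, 23.1 and 20.2 against 10.7, 10.7 and 7.89 in muscle-rich libraries (1.18 ± 0.21, adjusted p = 0.00098), and its muscle-poor genotypes overlapped (0.09 ± 0.39, adjusted p = 0.997).

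On chromosome 3, Gbp2, which targets bacteria and parasite vacuoles and is anchored by a lipid tail, was at 119, 110 and 102 normalised CPM in muscle-rich GRDim libraries on water and at 45.2, 36.9 and 36.2 in GRWT (1.50 ± 0.12, adjusted p = 2.91e-06). Gbp5, which is likewise lipid-anchored and linked to inflammasome activation, was at 15.9, 16.1 and 13.1 against 7.00, 5.92 and 5.41 (1.31 ± 0.19, adjusted p = 0.000119). Gbp3 showed the smallest change, with 32.7, 31.3 and 25.6 against 16.4, 17.6 and 14.5 (0.90 ± 0.13, adjusted p = 0.000124). The 3 genes were thus separated between genotypes on the muscle-rich side with little spread. On the muscle-poor side Gbp2 overlapped (73.2, 44.3 and 34.5 against 12.5 and 36.3), and its change of 1.04 ± 0.49 was not called (adjusted p = 0.919; 0.47 without GRWT water replicate 2, 0.68 without GRDim water replicate 1 and 2.01 without GRWT water replicate 3). Gbp3 was at 5.85, 5.40 and 5.07 there against 1.92 and 4.00 (0.86 ± 0.44, adjusted p = 0.933). Gbp5 was at 2.69, 1.67 and 1.90 against 0.84 and 1.65 (0.73 ± 0.49, adjusted p = 0.972), so neither of these genes overlapped and neither was called.

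Gbp7, which takes part in oxidative and autophagic killing of bacteria, was separated between genotypes on water in muscle-rich but not in muscle-poor libraries. It was at 76.6, 78.0 and 75.5 normalised CPM in muscle-rich GRDim libraries against 24.7, 24.5 and 20.5 in GRWT (1.74 ± 0.10, adjusted p = 3.95e-08). In muscle-poor libraries it was at 62.4, 50.6 and 45.0 against 32.7 and 65.0, so that the genotypes overlapped (0.10 ± 0.39, adjusted p = 0.997). With 1 library left out this change ranged from -0.31 to 0.68, and 65.0 was the library farthest from its group. The difference between both sides was itself tested in a model with a mean for each condition and side. It was 1.62 ± 0.39 on the log2 scale for Gbp7 (adjusted p = 0.0483), in a test that 1.41% of 15641 genes passed. It missed the threshold in 10 of 11 fits with a library left out, and was 1.04 without GRWT water replicate 3 (adjusted p = 0.478). For Gbp6 and Gbp8 on water this difference did not pass (adjusted p = 0.13 and 0.301).

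Gbp10 was higher in GRDim than in GRWT libraries on the muscle-rich side and lower on the muscle-poor side, where the difference was not called. In muscle-rich libraries on water it was at 3.26, 3.10 and 1.41 normalised CPM in GRDim and at 0.121, 0 and 0.0652 in GRWT mice, which corresponds to 121 reads against 3. The ratio of these sums was 39.4 (exact 95% interval 13.2 to 194, counting error only), and the fitted log2 change of 5.17 ± 0.65 (adjusted p = 2.52e-05) depends on the prior count. In muscle-poor libraries the order was turned, with 2.69, 1.52 and 1.06 in GRDim and 6.61 and 9.10 in GRWT, 4.55-fold less in GRDim by summed reads (3.45 to 6.07), which the test did not call (-2.17 ± 0.73, adjusted p = 0.735). The sides differed by 7.31 ± 1.14 on the log2 scale (adjusted p = 0.00236), a value that rests on the 3 muscle-rich GRWT reads and on the split of reads with Gbp6, since the sum of both genes differed by 1.20 ± 0.40 (adjusted p = 0.18). Its pooled change of 0.31 ± 0.81 (adjusted p = 0.833) was not called.

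**Figure D2:**
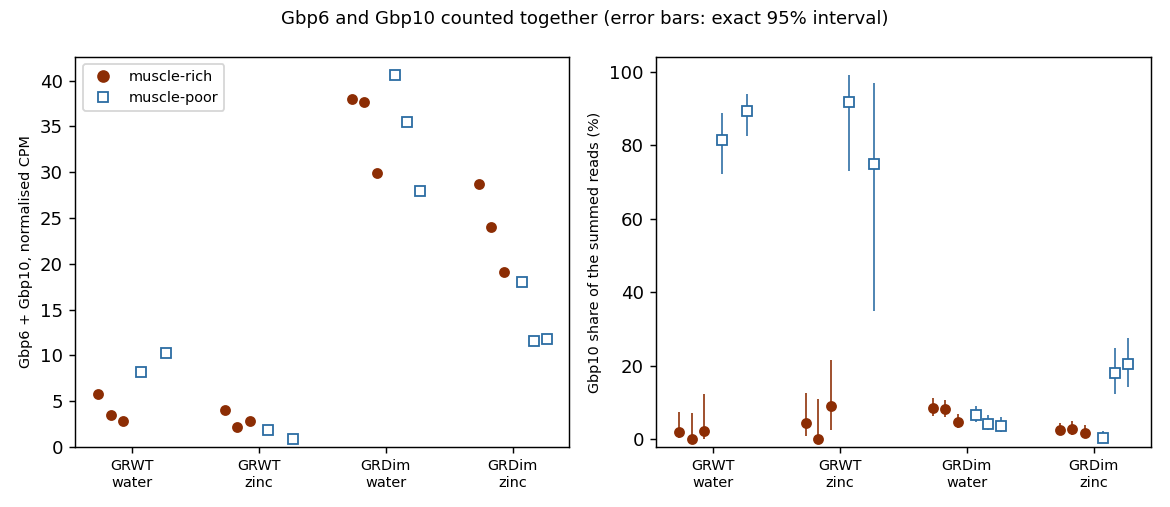
Left, summed normalised CPM of Gbp6 and Gbp10 in each library. Right, percentage of these reads assigned to Gbp10, with exact 95% binomial intervals; filled circles are muscle-rich and open squares muscle-poor libraries. The 4 muscle-poor GRWT libraries lie between 75.0% and 91.7%, and the other 18 libraries between 0% and 20.4%.

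Because Gbp6 and Gbp10 differ so little in sequence, their reads were also summed. The sum was 29.9 to 38.0 normalised CPM in muscle-rich and 28.0 to 40.6 in muscle-poor GRDim libraries on water. In GRWT it was 2.81 to 5.80 and 8.12 to 10.2, so the genotypes did not overlap on either side. Counted as 1 gene, the pair rose 8.77-fold in muscle-rich libraries (3.13 ± 0.27, adjusted p = 1.56e-05) and 5.77-fold over all libraries (2.53 ± 0.33, adjusted p = 0.000129). In muscle-poor libraries the pair was 3.76-fold higher in GRDim (1.91 ± 0.30), which was not called (adjusted p = 0.116). The muscle-poor call of Gbp6 on water was thus not found for the sum. The share assigned to Gbp10 differed as well. It was 81.4% and 89.2% in the muscle-poor GRWT water libraries and 91.7% and 75.0% in the muscle-poor GRWT zinc libraries, the last of 8 reads. In the other 18 libraries it was 0% to 20.4%, muscle-rich GRWT libraries included. The lowest reading came from GRDim zinc replicate 4 among the muscle-poor GRDim libraries (1 of 232 reads), against 17.9% and 20.4% in replicates 5 and 6. The intervals cover counting error only.

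In the fit over all 22 libraries, 6 members rose in GRDim on water (Gbp2, Gbp3, Gbp5, Gbp4, Gbp6 and Gbp8), with a median change of 1.12 over the 9 members against -0.0081 over all genes. The background was 5.73% of 15641 genes called, 3.26% upward. Gbp7 (0.90 ± 0.31, adjusted p = 0.0535), Gbp9 (0.72 ± 0.25, adjusted p = 0.0497, below the fold required) and Gbp10 were not called. DESeq2 called 7 members, Gbp7 among them (adjusted p = 0.0221). The call of Gbp7 was also made by the edgeR model with a mean for each condition and side (0.00515), with only the conditions compared (0.0465), without GRWT water replicate 3 (1.40, adjusted p = 0.000787) and without GRWT zinc replicate 3 (0.0251). With the tissue label in place of the muscle split, 3 members were called, and with both as covariates 7.

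**Figure D3:**
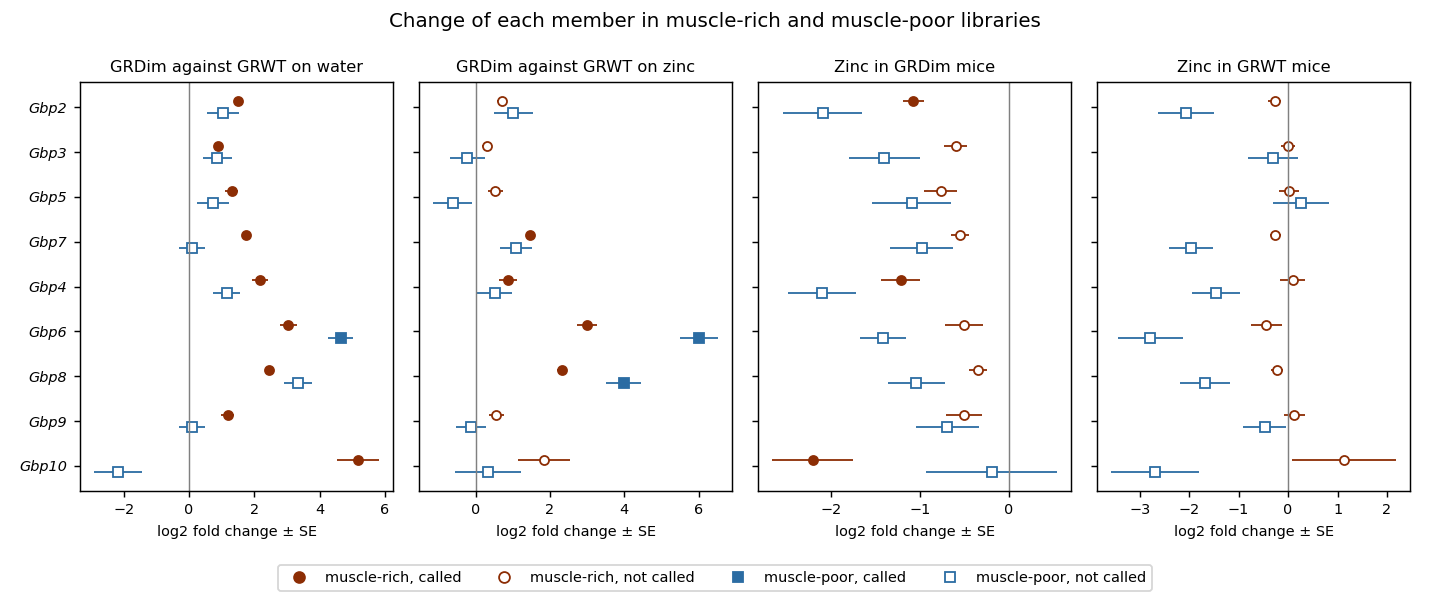
Log2 fold change ± SE of each member (rows) in 4 comparisons (panels), for muscle-rich (circles) and muscle-poor libraries (squares); filled symbols passed the test. On water all 9 muscle-rich circles are filled, and with zinc in GRDim mice all 18 estimates are below 0, of which 3 muscle-rich ones passed.

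Zinc was compared with water within each genotype. In GRDim mice, zinc lowered Gbp4 (-1.57 ± 0.29, adjusted p = 0.0113), Gbp2 (-1.54 ± 0.30, adjusted p = 0.0163) and Gbp3 (-0.89 ± 0.20, adjusted p = 0.0267) over all libraries. These are 3 of 9 members, against 0.556% of genes called in either direction and 0.313% downward. With 1 library left out Gbp3 lost its call in 6 of 13 fits (without GRDim water replicate 1, 4 or 5 or GRDim zinc replicate 1, 4 or 5; adjusted p from 0.0552 to 0.0688). The other 6 had negative estimates, from -0.56 for Gbp9 to -1.52 for Gbp10, and the median was -0.89 against 0.0031 over all genes. With the tissue label as the covariate, or with no covariate, no member was called. Gbp4 was then at -1.52 and -1.46, Gbp3 at -0.24 and -0.68, and Gbp5, not called before, at -0.33 and -0.78 against -0.84. With the muscle split and the label together the same number, 3, was called (Gbp4 -1.65, adjusted p = 0.00391).

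Within the muscle-rich side Gbp2 was at 45.3, 55.1 and 58.8 normalised CPM in GRDim mice on zinc, below the 119, 110 and 102 on water (-1.07 ± 0.12, adjusted p = 0.000671). Gbp4 was at 13.8, 18.1 and 19.3 against 41.3, 39.9 and 36.1 (-1.22 ± 0.22, adjusted p = 0.0112), and its call was lost without GRDim zinc replicate 1 (adjusted p = 0.0528) or 2 (0.0502). Gbp10 was at 0.695, 0.651 and 0.332 against 3.26, 3.10 and 1.41 (-2.21 ± 0.45, adjusted p = 0.00933). It passed the filter on low counts only through the group in which it is high, DESeq2 gave it no adjusted p, and its call was lost without GRDim water replicate 5 (-2.06, adjusted p = 0.05). Gbp2, Gbp4 and Gbp10 were those called, at a background of 1.33% of genes in either direction and 0.558% downward. All 9 members had zinc libraries below every water library, as did 14.8% of genes. From the model with a mean for each condition and side no member passed on the muscle-rich side (Gbp2 adjusted p = 0.162, Gbp4 0.0967, Gbp10 0.177).

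In muscle-poor GRDim libraries, zinc values were lower without overlap for 8 members, Gbp10 being the exception, and 11.9% of genes were lower in this way. Gbp2 was at 9.29, 11.1 and 15.0 on zinc against 73.2, 44.3 and 34.5 on water (-2.10 ± 0.45, adjusted p = 0.251), and Gbp4 at 3.33, 4.83 and 6.84 against 29.0, 21.2 and 14.6 (-2.10 ± 0.38, adjusted p = 0.165). Gbp6 was at 17.9, 9.52 and 9.40 against 37.9, 34.0 and 26.9 (-1.42 ± 0.26, adjusted p = 0.181). In the fit on this side no member was called, at a background of 0.0575%. An unadjusted p under 0.05 was found for 7 members and for 1098 of 13908 genes. DESeq2 called 3 members and the edgeR model with a mean for each condition and side called 5, for which no share over all genes is given.

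In GRWT mice, no member was called with zinc over all libraries with the muscle split as covariate, where 0.166% of genes were. In that comparison 3 members had an unadjusted p under 0.05, as did 2470 of 15641 genes. DESeq2 called 1 member, and the edgeR model with a mean for each condition and side called 4. The estimates of those 3 were -0.93 ± 0.34 for Gbp2 (adjusted p = 0.227), -1.09 ± 0.34 for Gbp7 (0.19) and -2.09 ± 0.99 for Gbp10 (0.31). Without GRWT water replicate 3, Gbp2 was at -0.51 and Gbp7 at -0.62. In muscle-rich GRWT libraries the zinc values overlapped the water values for 8 members, and Gbp7 was lower without overlap by a narrow margin (19.7, 17.8 and 20.5 against 24.7, 24.5 and 20.5; -0.26 ± 0.11, adjusted p = 0.383), as were 7.56% of genes. No muscle-rich member was called (0 by DESeq2), where 0.163% of genes were. An unadjusted p under 0.05 was found there for 2 members and for 1836 of 15947 genes. In muscle-poor GRWT libraries Gbp2 was at 7.70 and 3.74 on zinc against 12.5 and 36.3 (-2.06 ± 0.57, adjusted p = 0.228; -1.10 without GRWT water replicate 3). Gbp7 was at 17.9 and 6.73 against 32.7 and 65.0 (-1.96 ± 0.45, adjusted p = 0.228), and Gbp6 had 4 reads in all on zinc against 32, a ratio of 7.28 (2.58 to 28.3). There 6 members were lower without overlap (19.9% of genes). In the fit on this side no member was called, where 0.0431% of genes were. An unadjusted p under 0.05 was found for 6 members and for 2378 of 13908 genes. DESeq2 called 4 members and the model of condition by side 6, for which no share over all genes is given. GRWT zinc replicate 3 was one of the 2 zinc libraries.

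Whether zinc acted differently on the genotypes was tested with an interaction term. No member passed over all libraries, by edgeR or DESeq2, with no gene called in the whole table. An unadjusted p under 0.05 was found for 3 members and for 1184 of 15641 genes. Gbp4 had an estimate of -1.01 ± 0.44 (adjusted p = 0.645). On the muscle-rich side, Gbp2 (-0.80 ± 0.17, adjusted p = 0.0719) and Gbp4 (-1.31 ± 0.33, adjusted p = 0.124) were not called either, where 0.263% of genes were. There 5 members had an unadjusted p under 0.05, as did 2471 of 15947 genes, and DESeq2 called 2 members. On the muscle-poor side 0 members passed by either tool and 0 had an unadjusted p under 0.05, against 648 of 13908 genes. A change with zinc in GRDim mice that differs from that in GRWT mice was therefore not shown.

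On zinc, GRDim mice still had more of 3 members than GRWT mice over all libraries, Gbp6 (3.40 ± 0.40, adjusted p = 0.000181), Gbp8 (2.73 ± 0.31, adjusted p = 0.000131) and Gbp7 (1.27 ± 0.32, adjusted p = 0.0217), against 3.93% of genes called, 1.66% upward. Among the settings that lost the call of Gbp7 were leaving out GRDim zinc replicate 3 (adjusted p = 0.053) or GRWT zinc replicate 3 (0.051), the tissue label (0.0869) or no covariate (0.0655), and no count filter (0.0534). Gbp2 (0.71 ± 0.32) and Gbp4 (0.70 ± 0.32) were not called (adjusted p = 0.147 and 0.153). In muscle-rich libraries 4 were called (4.4% of genes, 2.43% upward), these 3 and Gbp4 (0.87 ± 0.24, adjusted p = 0.0326), and 7 were higher without overlap (17.6% of genes). Gbp4 lost its call without GRDim zinc replicate 2 or 3 or GRWT zinc replicate 4 or 5 (0.62 to 0.87) and in the model of condition by side (adjusted p = 0.122). Gbp6 was at 27.9, 23.3 and 18.7 normalised CPM in GRDim and at 3.85, 2.20 and 2.60 in GRWT (2.99 ± 0.27, adjusted p = 6.1e-05). Gbp8 was at 26.6, 33.7 and 31.8 against 6.92, 5.23 and 6.11 (2.32 ± 0.12, adjusted p = 2.08e-08).

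In muscle-poor libraries on zinc, Gbp6 and Gbp8 were the 2 members called, among 8 genes in all (0.0575%, 0.0431% upward). With 2 reads in each GRWT library here, Gbp6 passed the filter on low counts only through the other groups. There 4 members were higher without overlap, against 14.6% of genes. Gbp6 was at 17.9, 9.52 and 9.40 in GRDim mice against 0.153 and 0.214 in GRWT, 480 reads against 4, a ratio of 68.7 (exact 95% interval 26.7 to 253). Summed with Gbp10, to which most reads of the pair went in these GRWT libraries, the mean level was 13.8 ± 3.62 against 1.34 ± 0.69 (SD), a 9.76-fold change (3.29 ± 0.36, adjusted p = 0.0212). Gbp8 was at 28.2, 17.5 and 27.3 against 0.991 and 2.14 (3.98 ± 0.48, adjusted p = 0.0368). Its adjusted p was 0.0777 without GRWT zinc replicate 3, and 0.17, 0.0731 and 0.211 without GRDim zinc replicate 4, 5 or 6. The genotype and the tissue label cannot be told apart in this comparison, as the GRDim libraries were labelled IEC and the GRWT libraries ileum. The changes of Gbp6 and Gbp8 on zinc were smaller on the muscle-rich than on the muscle-poor side, by 3.03 ± 0.76 (adjusted p = 0.0404) and 1.69 ± 0.44 (adjusted p = 0.0467) on the log2 scale. This was tested in the model of condition by side that 3.18% of genes passed. The value for Gbp6 rests on the 4 muscle-poor GRWT reads, depends on the prior count and on the split of reads with Gbp10, and is given as no size of change. With Gbp6 and Gbp10 summed the sides did not differ detectably (-0.33 ± 0.50, adjusted p = 0.721), the pair being 7.73-fold higher in muscle-rich GRDim libraries (2.95 ± 0.28, adjusted p = 0.00011). With 1 library left out, the difference between sides missed the threshold in 7 of 11 fits for Gbp6 (adjusted p up to 0.21) and in 10 of 11 for Gbp8 (up to 0.109). The comparisons on water and on zinc and those with zinc share libraries, and their values are set side by side only.

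The members also differed between muscle-rich and muscle-poor libraries at the same condition. In muscle-rich libraries 6 were higher, Gbp3 (2.73 ± 0.16), Gbp5 (2.67 ± 0.19), Gbp2 (1.55 ± 0.23), Gbp9 (1.50 ± 0.18), Gbp4 (0.97 ± 0.23) and Gbp6 (0.89 ± 0.27), with adjusted p-values from 2.64e-12 for Gbp3 to 0.00645 for Gbp6. The call of Gbp6 was lost without GRWT zinc replicate 2 (0.76) or 3 (0.68). Gbp10 was lower (-1.84 ± 0.65, adjusted p = 0.019). Both values depend on the split of reads between the pair, whose summed mean on water was 35.2 normalised CPM in muscle-rich and 34.7 in muscle-poor GRDim libraries, and 4.02 and 9.16 in GRWT. Gbp7 (0.31 ± 0.22, adjusted p = 0.233) and Gbp8 (0.36 ± 0.21, adjusted p = 0.142) were not called. As 23.1% of all genes passed this test, 19.5% upward and 3.58% downward, a call here is common. Gbp2b, a paralogue next to Gbp2 that is not among the members, was at 31.999 to 53.5 normalised CPM in muscle-rich and at 0.61 to 4.59 in muscle-poor libraries (4.39 ± 0.20).

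Markers of other cell types were compared as well, and those of some immune cells differed along with the members. T and NK cell markers summed to 82.1 to 126 normalised CPM in muscle-rich GRWT and 501 to 580 in muscle-rich GRDim libraries on water. Of the 10 listed, 9 are in the file. In that comparison 8 of the 9 markers tested rose with a median log2 change of 2.12, against 5.02% of all genes called upward. On zinc the sum was 291 to 313 in GRDim and 75.1 to 93.9 in GRWT muscle-rich libraries, and 9 of 9 markers were called higher in GRDim, against 2.43% of all genes. None of the 9 was at 0 in all libraries of a group. The 10 macrophage and dendritic cell markers summed to 248 to 310 in GRWT and 421 to 461 in GRDim muscle-rich libraries on water, where 2 of 10 rose, and on zinc to 296 to 391 in GRDim and 263 to 426 in GRWT, which overlapped. The 7 B and plasma cell markers summed to 1680 to 2080 in GRWT and 3970 to 4935 in GRDim muscle-rich libraries on water, where 2 of 7 rose with a median of 1.48. On zinc these sums were 1340 to 2060 and 3676 to 4602, with 2 of 7 called higher in GRDim and a median of -0.27. Of the other lists in muscle-rich libraries on water, 0 of 10 smooth muscle, 0 of 6 endothelial and 0 of 6 fibroblast markers were called. Of 10 epithelial markers 1 was called lower. The smooth muscle sum was 1790 to 2018 in GRDim and 2347 to 2572 in GRWT. The epithelial sum was 18113 to 19412 and 20598 to 21662, so neither overlapped. In muscle-poor libraries on water the T and NK sum was 283 to 589 in GRWT and 432 to 643 in GRDim, overlapping, with 0 of 9 markers called (0.0288% of genes). In muscle-poor GRDim libraries on zinc it was 258 to 369, below all those on water, with 0 of 9 called (0.0575% of genes). In muscle-poor GRWT libraries on zinc it was 202 and 612, which overlapped those on water. The macrophage and dendritic cell sum in muscle-poor libraries was 39.6 to 58.7 on water, with 1 of its 10 markers at 0 in GRWT water, and 33.7 to 41.6 on zinc. In bulk tissue, fewer cells of a type and less RNA per cell cannot be told apart, and the part of these cell types in the members' levels was not tested.

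**Figure D4:**
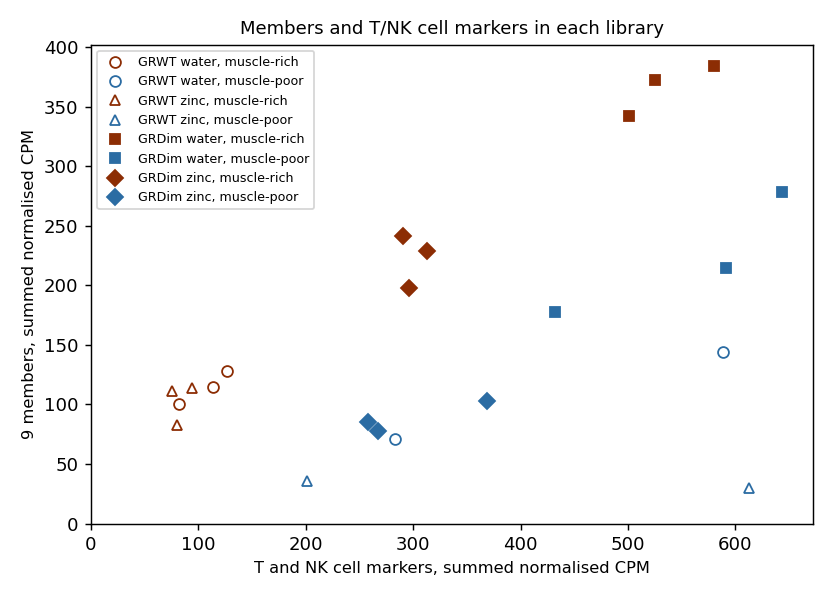
Summed normalised CPM of the 9 members (vertical axis) against the summed normalised CPM of 9 T and NK cell markers (horizontal axis), 1 point per library; filled symbols are GRDim and brown symbols muscle-rich. Muscle-rich GRWT libraries lie at the lower left and muscle-rich GRDim water libraries at the upper right, while muscle-poor GRWT zinc replicate 3 has a marker sum of 612 and a member sum of 29.5.

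Members summed to 101 to 128 normalised CPM in muscle-rich GRWT and 342 to 384 in muscle-rich GRDim libraries on water. On the muscle-poor side the sums were 70.7 and 144 in GRWT, and 178 to 279 in GRDim libraries. GRWT water replicate 3, the library with the higher member sum, also had the higher T and NK sum (589 against 283 in replicate 2).

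Interferon-gamma signalling was given from a list of 16 genes, some of which act upstream of the members and some of which are themselves induced by the cytokine. In muscle-rich libraries 7 rose in GRDim on water and 0 fell, with a median of 0.48, against 5.02% of all genes called upward. Ifng, the cytokine itself, was at 0.0652 to 0.181 normalised CPM in GRWT and at 1.05 to 2.22 in GRDim. GRWT levels lay below the 3-read limit of 0.192 to 0.228 CPM and the gene passed the count filter only through other groups, so its fitted change of 3.89 ± 0.48 (adjusted p = 2.18e-05) depends on the prior count and is given as no size of change. Among the others that rose were Irf1 (0.99 ± 0.08), Irf8 (1.49 ± 0.07), the MHC class I transactivator Nlrc5 (3.40 ± 0.24), the class II transactivator Ciita (1.59 ± 0.25) and the feedback inhibitor Socs1 (2.57 ± 0.18). The receptor chains Ifngr1 (-0.34 ± 0.05) and Ifngr2 (-0.29 ± 0.06) were below the fold required, and the kinase Jak1 (0.10 ± 0.06) was not called. In muscle-poor libraries 0 of 16 were called, where 0.0288% of genes were, with Irf8 at 0.49 ± 0.20 (adjusted p = 0.855).

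The immunity-related GTPases, which work on the same vacuoles, were a list of 10. All 10 rose in GRDim on water in muscle-rich libraries, by 1.72 (Gm4951) to 4.46 (Tgtp1) with a median of 3.22, against 5.02% of all genes. Over all libraries 9 of 10 rose, against 3.26% of all genes, Irgm2 being the exception (1.19 ± 0.43, adjusted p = 0.0617). Igtp, for example, was at 19.8 to 29.4 normalised CPM in GRWT and 247 to 296 in GRDim muscle-rich libraries (3.47 ± 0.21, adjusted p = 3.75e-06). In muscle-poor libraries 9 were tested and 0 were called (0.0288% of genes), with Igtp at 178 to 293 against 287 to 456 (0.59 ± 0.30, adjusted p = 0.933). With zinc 7 of 10 fell in muscle-rich GRDim libraries, against 0.558% of all genes, among them Tgtp1 (-1.69 ± 0.33, adjusted p = 0.0123) and Irgm1 (-0.82 ± 0.12, adjusted p = 0.0037).

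Of 16 partners and effectors of guanylate-binding proteins, 4 were called in muscle-rich libraries on water, against 10.5% of all genes. Those that rose were 3, Casp4 (caspase-11, 1.45 ± 0.07, adjusted p = 2.18e-09), Il1b (1.33 ± 0.37, adjusted p = 0.0118) and the oxidase subunit Cybb (0.91 ± 0.28, adjusted p = 0.0292). Il18 fell (-1.15 ± 0.26, adjusted p = 0.00787). Casp1 (197 to 229 in GRWT and 299 to 319 normalised CPM in GRDim) and the adaptor Pycard (125 to 133 and 192 to 208) did not overlap between genotypes but were below the fold required. The pore-forming substrate Gsdmd (0.15 ± 0.07), the autophagy genes Atg5 (-0.05 ± 0.06) and Atg3 (-0.14 ± 0.06) and the prenyltransferase subunits Fnta (0.00 ± 0.06), Fntb (-0.16 ± 0.07) and Pggt1b (-0.05 ± 0.09) were not called. In muscle-poor libraries 14 were tested and 0 were called (0.0288% of genes).

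**Figure D5:**
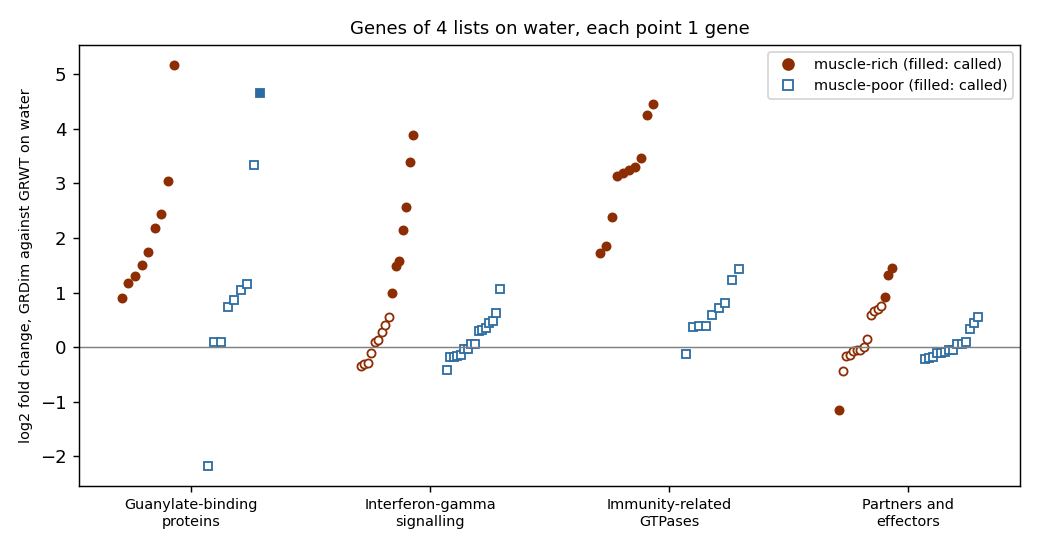
Log2 fold change on water, GRDim against GRWT (vertical axis), of every tested gene in the 9 members and 3 lists (horizontal axis), for muscle-rich (circles) and muscle-poor libraries (squares); filled symbols passed the test. All immunity-related GTPases are filled on the muscle-rich side (10 of 10) and none on the muscle-poor side, while Gbp6 is the filled square among the members.

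Within 1 Mb of the chromosome 3 cluster 6 other genes were tested and 0 were called on water over all libraries, where 5.73% of all genes were called. Around the chromosome 5 cluster 16 were tested and 2 were called, Dmp1 (-1.46 ± 0.34, adjusted p = 0.00727) and the further family member Gbp11, a polymorphic pseudogene. On water Gbp11 was at 0 to 0.181 normalised CPM in muscle-rich GRWT and at 0.98 to 1.91 in muscle-rich GRDim libraries. These GRWT levels are 0 to 3 reads a library, so its fitted change (1.88 ± 0.53, adjusted p = 0.0199) is given as no size of change. Of the 50-base stretches of its transcripts, 19.2% also occur in other genes. The pseudogene Gbp2-ps had 0 counts in all 22 libraries.

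The members varied together in muscle-rich libraries, where the 36 pairs had Pearson correlations of log2 CPM from 0.824 to 0.986 over 12 libraries. In muscle-poor libraries they ranged from -0.265 (Gbp6 with Gbp10) to 0.975 over 10 libraries. The genes outside the family whose log2 CPM was most like the members' mean, by the lower of the correlations on both sides, were Tap1 (0.973), Lyn (0.971), Pla2g16 (0.969), Psmb9 (0.962), Irf8 (0.962), Igtp (0.961), Sp140 (0.961), Zbp1 (0.961), Gm12250 (0.956) and B3gnt7 (0.956). The libraries in these correlations share conditions and composition, and the values are descriptions.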

How the data were processed

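RNA was sequenced as TruSeq stranded single-end libraries. Per the labels and the study's methods, reads were trimmed (Trimmomatic), mapped to mm10 with HISAT2 2.0.4 and assigned to Ensembl genes by featureCounts, without multi-mapping reads. The strand setting, the annotation release and the read length are not given in the sources used here. The authors deposited raw read counts for 54838 genes in 22 libraries. Gene names came from GENCODE vM21 on GRCm38, which named 54809 identifiers. The members and all lists were chosen with earlier results of these data known.

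From the deposited counts, edgeR 4.0.16 in R 4.3.3 fitted TMM-normalised counts after filterByExpr (quasi-likelihood, robust) with the muscle split as covariate (Myh11 above 100 CPM), and each side of the split on its own. Benjamini-Hochberg adjustment covered all genes tested. A gene was called at an adjusted p under 0.05 and an absolute log2 fold change over 0.8; for the interaction and for differences between sides the adjusted p alone counted. Standard errors are the log2 fold change divided by the root of F. Normalised CPM uses TMM library sizes, and a level of 3 reads was 0.192 to 0.228 CPM. DESeq2 1.42.0 was an alternative. Shares of genes called are from the edgeR fits. None is given for members called by DESeq2 or, outside the tests between sides, by the model with a mean for each condition and side. The test of a difference between sides, the sum of Gbp6 and Gbp10 and the fits on numbered libraries only or with both covariates were added after the data were seen. The labels do not tie each library to a mouse of its own, so p-values measure the spread between libraries, and no 2 libraries of a group agreed within sampling noise. The named genes were the members, other Gbp genes, the 3 lists, called neighbours within 1 Mb and the 10 genes most like the members. Tests were tried on simulated counts with known changes. Values of 1 listed gene are not reported here.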

Additional observations from a re-analysis of the deposited data

Results flagged for a closer look

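Among 36 groups of 5 or 6 libraries (each of 9 members in 4 conditions), 3 held a library far from the others by Dixon's test, which flags about 1 in 20 groups by chance. These were Gbp2 in GRWT water replicate 2 (12.5 normalised CPM, the nearest 36.2), Gbp7 in GRWT water replicate 3 (65.0, the nearest 32.7) and Gbp7 in GRWT zinc replicate 3 (6.73, the nearest 17.8). All 3 are muscle-poor libraries, and each group mixes muscle-rich and muscle-poor libraries.

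Of 36 tests of whether a member's change differed between muscle-rich and muscle-poor libraries, 4 passed. On water the difference of the log2 changes, muscle-rich minus muscle-poor, was 1.62 for Gbp7 and 7.31 for Gbp10. On zinc it was -3.03 for Gbp6 and -1.69 for Gbp8. The value for Gbp6 rests on 4 reads in the muscle-poor GRWT zinc libraries and on the split of reads with Gbp10. The value for Gbp10 rests on 3 reads in the muscle-rich GRWT water libraries and on the split of reads with Gbp6, and with both genes summed the difference on water was 1.20 (adjusted p = 0.18). With a library left out, Gbp6 missed the threshold in 7 and Gbp7 and Gbp8 in 10. With Gbp6 and Gbp10 summed the difference on zinc was -0.33 (adjusted p = 0.721).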

How the results depend on the processing

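On the muscle-poor side, with 2 or 3 libraries a condition, leaving out 1 library changed calls. On water, 3 members were called with the tissue label as covariate or with no covariate, against 6, and Gbp10 turned to -0.10 and -0.54; it was -0.0042 with only the conditions compared. With zinc in GRDim mice, 0 were called under those covariates, against 3, and 5 with a mean for each condition and side, with only the conditions compared, or without GRWT zinc replicate 3 (2 to 5 over the libraries left out). With zinc in GRWT mice, a mean for each condition and side called 4 and DESeq2 called 1, against 0. Within the muscle-rich side, that model called 0 members with zinc in GRDim mice, against 3, and DESeq2 called 2 in the interaction, against 0 (0 to 2 with a library left out, 2 without GRWT zinc replicate 5 and 1 without GRDim zinc replicate 3). Within the muscle-poor side the same model called 2 members on water, 6 with zinc in GRWT and 5 with zinc in GRDim mice, and DESeq2 called 2, 4 and 3, against 1, 0 and 0. Leaving out 1 library gave 0 to 2 members on water (0 without GRWT water replicate 2 or 3, 2 without GRWT zinc replicate 3), 1 to 3 on zinc (1 without GRWT zinc replicate 3 or any of GRDim zinc replicates 4 to 6), 0 to 2 with zinc in GRWT mice and in the interaction (2 without GRWT zinc replicate 2), and 0 to 3 with zinc in GRDim mice (3 without GRWT zinc replicate 3). With a library left out, Gbp10 on water ranged from -0.045 to 0.92 over all libraries, and on the muscle-poor side Gbp7 ranged from -0.31 to 0.68 and Gbp9 from -0.10 to 0.30. With numbered libraries only, a choice made after seeing the data, 0 members were called on water and 0 on zinc on the muscle-poor side, against 1 and 2. The cause of these shifts was not tested. The other size factors and count filters kept each count of members called within 1.5 times.

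Replicate numbers did not pair the libraries: 25 same-numbered pairs had correlations of residuals from -0.224 to 0.317 (median -0.040), and 4 of 20 libraries correlated best with their own number. With the replicate block 8 members were called on water, 0 with zinc in GRWT, 4 with zinc in GRDim, 2 on zinc and 0 in the interaction, and over all genes on zinc the block called 94 higher and 33 lower, against 216 and 248 in the same numbered libraries without the block. On zinc Gbp7 had an adjusted p of 0.0791 with the block.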
